A study of Rattus norvegicus with 6 samples.

Results

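miR-132 and miR-212 are a pair of microRNAs (miRNAs) cut from one primary transcript whose promoter is induced by the transcription factor CREB. They were followed here through their 4 mature arms, rno-miR-132-3p, rno-miR-132-5p, rno-miR-212-3p and rno-miR-212-5p, which were taken by name from the 753 known mature miRNAs of the count table. Small RNA was sequenced from the lumbar spinal cord on the injected side, with the meninges removed, 14 days after cells were placed in the left tibia of Wistar rats, as the labels give the strain (the study's methods name female Sprague Dawley rats). The BCP group (bone cancer pain, 3 rats) received living Walker 256 mammary carcinoma cells, and the sham-operated group (3 rats) received heat-killed cells of the same kind, so that both groups carried the bone injury and tumor cell material. Each library came from 1 rat, the rats' age was not given in the sources used here, and the tissue was not sorted, so the signal was an average over neurons, glia, vessels and blood cells. The tumor lay in the bone and not in the tissue sequenced.

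In neurons, synaptic activity and neurotrophins such as BDNF lead to phosphorylation of CREB, which raises transcription of their shared precursor. Dicer then releases from each hairpin a duplex of a 5p and a 3p arm, and one arm is usually kept in the silencing complex while the other is lost. miR-132-3p is the arm studied most, known for promoting the growth of neurites and dendritic spines.

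The mature sequences are shown because the seed, bases 2 to 8 in capitals, sets which messages an arm can pair with. They are from RefSeq on the rat build GRCr8, which held 688 of the 753 listed miRNAs and all 4 arms.

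rno-miR-132-3p: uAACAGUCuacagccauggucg
rno-miR-212-3p: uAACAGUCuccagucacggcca
rno-miR-132-5p: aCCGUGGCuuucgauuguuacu
rno-miR-212-5p: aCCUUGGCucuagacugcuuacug

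Both 3p arms had the seed AACAGUC, and no other of the 688 miRNAs had it. They were identical over their first 9 bases and differed at 5 of 22 positions, all past the seed, so whole reads of these arms could be told apart. Each 5p arm had a seed of its own, CCGUGGC for miR-132-5p and CCUUGGC for miR-212-5p, which differed at 1 base. Aligned from the first base, the 5p arms differed at 8 of 22 positions. miR-212-5p was 24 bases long and the other arms 22, with 45.5% G and C in miR-132-5p, 50% in miR-132-3p and miR-212-5p, and 54.5% in miR-212-3p. The authors stated a length of 21 to 22 nucleotides among their criteria for known miRNAs, and whether this lowered the count of the longer miR-212-5p was not tested.

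The RefSeq hairpin of Mir132, given to show how the arms lie in the precursor, has 101 bases with miR-132-5p (bases 23 to 44) and miR-132-3p (bases 59 to 80) in capitals and 14 bases between them.

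Mir132: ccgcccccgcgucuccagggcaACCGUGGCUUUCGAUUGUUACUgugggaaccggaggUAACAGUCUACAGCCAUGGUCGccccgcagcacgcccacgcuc

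On chromosome 10 of GRCr8, plus strand, Mir212 comes first and Mir132 second, with 0 other annotated genes between or over them. The protein-coding gene Hic1 lies before the pair and the long non-coding RNA gene LOC120095261 after it. The authors mapped reads to Rnor_6.0, another build, so no coordinates are given.

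The 6 libraries held between 13464349 and 23770677 counts, at which 3 counts, taken as the smallest amount told from 0, equal 0.126 to 0.223 CPM (counts scaled to 1e6 in a library). Levels are given as CPM after TMM normalization, a scaling that takes most miRNAs to have the same level in all libraries. All 4 arms lay far above this limit and passed the filter on low counts. The libraries also differed along G and C content: the median of 31 tested miRNAs with less than 35% G and C, set against that of 203 with at least 50%, lay 0.27, 0.61 and 0.36 log2 units up in BCP rats 2 and 3 and sham-operated rat 3, and 0.31, 0.25 and 0.69 log2 units down in BCP rat 1 and sham-operated rats 1 and 2 (values as deviations from each miRNA's mean). This axis crossed the groups but was not balanced between them, with most BCP libraries up and most sham-operated libraries down. Of the miRNAs taken as markers of the tissue, all 8 neuronal and all 4 oligodendrocyte miRNAs were detected, and the 3 erythroid miRNAs in the table were listed at 0 in every library. Other miRNAs, such as miR-186-5p, miR-98-5p and miR-142-3p, were also listed at 0 in every library. Whether such a 0 means absence from the tissue or a gap in the count table was not tested.

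miR-132-5p was the most abundant of the 4 arms. Its counts were 14921, 16626 and 13981 in sham-operated rats 1, 2 and 3, and 23913, 12231 and 14518 in BCP rats 1, 2 and 3. This was 1076, 1093 and 935 CPM in the sham-operated rats and 1014, 901 and 918 CPM in the BCP rats. Sham-operated rat 3 fell within the range of the BCP group, and the other 2 sham-operated rats were above it. miR-132-5p ranked between 71 and 79 among all 753 miRNAs in the 6 libraries.

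miR-132-3p, the arm linked to neurite growth, followed closely. It had 11956, 14705 and 11812 counts in the sham-operated rats and 20089, 10133 and 12571 in the BCP rats. In CPM these were 862, 967 and 790 in the sham-operated rats, and 852, 746 and 795 in the BCP rats. BCP rats 1 and 3 lay above the lowest sham-operated rat, so the groups overlapped. Its rank was between 77 and 87.

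miR-212-5p was next and varied most. Its counts were 6557, 6508 and 4923 in the sham-operated rats and 8472, 4195 and 5189 in the BCP rats, which gave 473, 428 and 329 CPM against 359, 309 and 328 CPM. Sham-operated rats 1 and 2 were above every BCP rat, and sham-operated rat 3 was below BCP rat 1. Its rank was between 110 and 124.

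miR-212-3p, which shares its seed with miR-132-3p, was the least abundant arm. It had 712, 875 and 774 counts in the sham-operated rats and 1236, 608 and 775 in the BCP rats, or 51.3, 57.5 and 51.8 CPM against 52.4, 44.8 and 49 CPM. BCP rat 1 lay above sham-operated rats 1 and 3, and the other BCP rats lay below all sham-operated rats. Its rank was between 222 and 234.

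**Figure D1:**
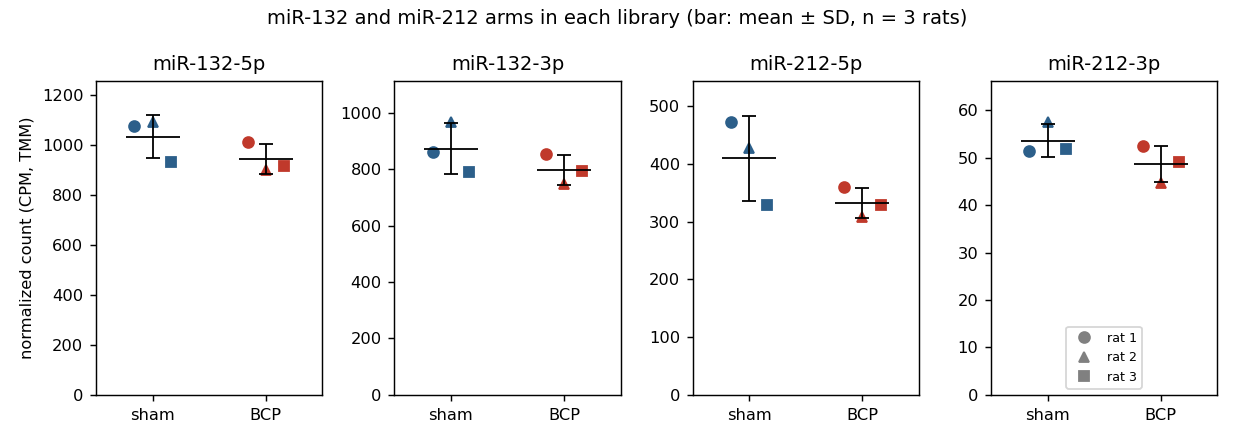
Normalized count (CPM, linear axis from 0) of the 4 arms in each library, with sham-operated rats in blue, BCP rats in red, a symbol for each rat number and black bars for the mean ± SD of 3 rats. In each panel the BCP mean lies lower and the points of the groups overlap.

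The order miR-132-5p, miR-132-3p, miR-212-5p, miR-212-3p was the same in every library. The gap between the first and the second arm was small. miR-132-5p had between 1.13 and 1.25 counts for each count of miR-132-3p within a library, although their ranges over all rats, 901 to 1093 and 746 to 967 CPM, overlapped. The gaps below were wider, with no overlap between miR-132-3p, miR-212-5p and miR-212-3p. Such comparisons between arms also carry the unequal ligation and mapping of different sequences, which was not measured here. In the sham-operated group the 4 arms stood beside miRNAs of very different kinds. miR-132-5p, at 1035 ± 86.8 CPM (SD, n = 3 rats), lay between miR-370-3p and let-7d-3p, and miR-132-3p, at 873 ± 89.1, between miR-423-3p and miR-382-3p. miR-212-5p, at 410 ± 73.4, lay between miR-423-5p and miR-1298, and miR-212-3p, at 53.5 ± 3.47, between miR-872-3p and miR-760-3p. None of these neighbours differed from the arm beside it by more than its own SD.

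Most reads with the AACAGUC seed came from miR-132. miR-212-3p supplied between 5.62% and 6.15% of them in the 6 libraries, and miR-132-3p supplied the rest. The summed level of both 3p arms was 927 ± 92.2 CPM in the sham-operated group and 847 ± 56.7 in the BCP group (SD, n = 3 rats each). miR-212-5p made up a larger part of the 5p reads, between 25.5% and 30.5%.

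The question of the comparison was whether the levels of these activity-linked arms differed between rats with bone cancer pain and sham-operated rats. No arm passed the test in either direction. The BCP mean was lower for all 4, by about 9% for miR-132-3p, miR-132-5p and miR-212-3p and by 19% for miR-212-5p, with 95% intervals that include no difference in this fit. For miR-212-5p the interval lay below 0 in 4 of 10 alternatives, those with total counts, RLE size factors, DESeq2 or an index of G and C content as a covariate, with adjusted p from 0.12 to 0.341. With that covariate the log2 fold change of miR-212-5p was itself nearer to 0, at -0.19, and that of miR-132-3p was -0.05. Without sham-operated rat 3 it lay below 0 for 3 arms, miR-132-3p, miR-132-5p and miR-212-5p, with adjusted p from 0.0535 to 0.171 in edgeR's test. edgeR's quasi-likelihood test over 459 miRNAs with Benjamini-Hochberg adjustment put miR-132-3p at -0.13 on the log2 scale, BCP against sham, with a standard error of 0.114 and an adjusted p of 0.685, with means of 798 ± 52.9 CPM in the BCP group and 873 ± 89.1 in the sham-operated group (SD, n = 3 rats each). The same edgeR test put miR-132-5p, at 944 ± 61.1 CPM in the BCP group, also at -0.13, with a standard error of 0.107 and an adjusted p of 0.66. The minor arm miR-212-3p, at 48.7 ± 3.83 CPM in the BCP group, lay at -0.14 with a standard error of 0.121 (edgeR, adjusted p = 0.692). miR-212-5p, at 332 ± 25.4 CPM in the BCP group, had the largest difference of the 4, at -0.30 with a standard error of 0.152 (edgeR, adjusted p = 0.457).

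The precision of the test bounded these differences. The 95% intervals of the fold, BCP over sham, ran from 0.762 to 1.10 for miR-132-3p, from 0.769 to 1.08 for miR-132-5p, from 0.75 to 1.11 for miR-212-3p and from 0.636 to 1.03 for miR-212-5p. On the log2 scale all 4 intervals lay inside the study's threshold of 0.8 in either direction, the lowest bound being -0.65 for miR-212-5p. At this threshold and an adjusted p below 0.05, 16 of 459 tested miRNAs (3.49%) were called, all of them higher in the BCP group in this fit, and 0 of the 4 arms. The study itself reported more miRNAs at these thresholds, some of them lower, after its own selection. The 16 called here became 8 without BCP rat 2, 9 without sham-operated rat 1 and 10 without BCP rat 3. At an unadjusted p below 0.05, 11 miRNAs (2.40%) were lower in this fit, with 0 of the 4, a count that the alternatives with intervals below 0 would change. The groups parted with all BCP rats lower for 24 miRNAs (5.23%) and for 0 of the 4. A fitted mean below that of the sham-operated group was found for 51.0% of all tested miRNAs, and the 4 arms, which share a transcript and 6 libraries, are not 4 separate observations of it. The exact permutation test on the CPM of each arm gave a two-sided p of 0.2 for both 5p arms and 0.3 for both 3p arms, where 3 rats against 3 cannot give less than 0.1. In this bulk tissue, fewer cells that make these miRNAs and less of them in each cell cannot be told apart.

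Markers of other cells are given beside this result. The summed level of the 8 neuronal miRNAs was 130020 to 141894 CPM in the sham-operated rats and 134025 to 145508 in the BCP rats, with 0 of 8 past an adjusted p of 0.05 in edgeR's test and a median log2 fold change of 0.05. Most of this sum was miR-9a-5p, at 0.18 on the log2 scale, and miR-128-3p, at -0.14, and 4 of the 8 members had a lower mean in the BCP group, miR-129-5p, miR-128-3p, miR-138-5p and miR-124-3p, with values from -0.23 to -0.03. Over all 459 tested miRNAs 18 (3.92%) passed at this adjusted p alone. The 4 oligodendrocyte miRNAs summed to 19356 to 23834 and 17701 to 20959 CPM, with 0 of 4 past it, and the 4 vascular miRNAs to 21416 to 29010 and 21298 to 30371 CPM, also with 0 of 4. The 7 myeloid and lymphoid miRNAs summed to 2735 to 3614 CPM in the sham-operated rats and 6121 to 6965 in the BCP rats, with 3 of 5 tested members higher and 0 lower at an adjusted p below 0.05, and with both arms of miR-142, a miRNA of blood cell lineages, listed at 0. The rise of this sum was mostly that of miR-146a-5p, from 1312 to 4372 CPM, while miR-150-5p and miR-342-3p, which did not pass the test, lay at -0.13 and 0.11 on the log2 scale. The part of these markers in the levels of the 4 arms was not tested.

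The arms were then set against each other within each library, where the normalization cancels. In each of the 6 ratios compared the groups overlapped (two-sided exact permutation test, adjusted p from 0.6 to 1 over the 6 ratios, with 0.1 the smallest raw p possible for 3 rats against 3, so that none could pass 0.05). The balance of the miR-132 hairpin was nearly constant. log2(3p/5p) was -0.32, -0.18 and -0.24 in sham-operated rats 1, 2 and 3, and -0.25, -0.27 and -0.21 in BCP rats 1, 2 and 3. The group means differed by 0.0031 (standard error 0.0453), and all 3 BCP rats lay within the sham-operated range. As a share, miR-132-3p held between 44.5% and 46.9% of the reads of its hairpin.

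The miR-212 hairpin was far more unequal. miR-212-5p had between 6.36 and 9.2 counts for each count of miR-212-3p. log2(3p/5p) was -3.20, -2.89 and -2.67 in the sham-operated rats, and -2.78, -2.79 and -2.74 in the BCP rats. The BCP rats fell inside the sham-operated range and close together, with an SD of 0.0227 against 0.268 (n = 3 rats each), and the difference of 0.15 (standard error 0.155) was not past the spread between rats (exact permutation test, adjusted p = 0.6). It was 0.013 without sham-operated rat 1 and 0.28 without sham-operated rat 3. Sham-operated rat 1 gave the lowest ratio and also the highest miR-212-5p, while its miR-212-3p was the lowest in its group.

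The ratio of the 3p arms of both hairpins was steady too. log2(miR-132-3p/miR-212-3p) was 4.07, 4.07 and 3.93 in the sham-operated rats and 4.02, 4.06 and 4.02 in the BCP rats, which is 15.3 to 16.8 counts of miR-132-3p for each of miR-212-3p. The groups differed by 0.0097 (standard error 0.0478). For the 5p arms, log2(miR-132-5p/miR-212-5p) was 1.186, 1.353 and 1.506 in the sham-operated rats and 1.497, 1.544 and 1.484 in the BCP rats. Its difference of 0.16 (standard error 0.094) had an adjusted p of 0.6 in the exact permutation test, which with 3 rats against 3 could not pass 0.05. It was 0.079 without sham-operated rat 1 and 0.24 without sham-operated rat 3. Relative to miR-124-3p, a miRNA found almost only in neurons and at 2753 ± 39.2 CPM in the sham-operated group, the BCP group was lower by 0.098 log2 units for miR-132-3p (standard error 0.0832) and by 0.11 for miR-212-3p (standard error 0.065), both with an adjusted p of 0.6 in the exact permutation test.

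**Figure D2:**
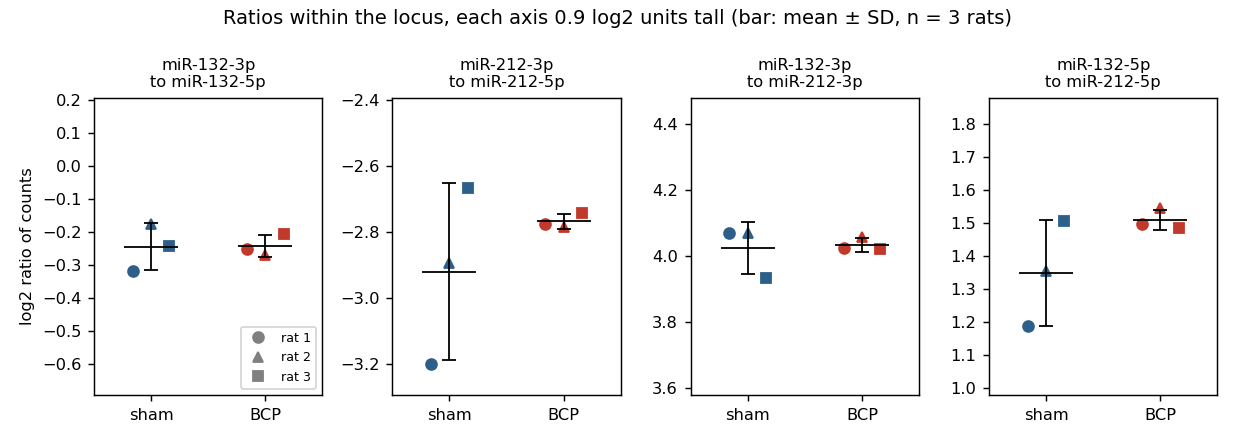
Log2 ratio of counts within the locus in each library, on axes of equal height, with sham-operated rats in blue, BCP rats in red and bars for the mean ± SD of 3 rats. The ratios of miR-132-3p to miR-132-5p and to miR-212-3p hold within a narrow band. Both ratios with miR-212-5p spread among the sham-operated rats, with rats 1 and 3 at opposite ends.

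To place these ratios, log2(3p/5p) was computed for the 137 precursors whose arms both had at least 10 counts in every library. The 5p arm was the more abundant in 76 of them and the 3p arm in 61. miR-132 was among the most balanced, 4th by the size of its mean log2 ratio of -0.25, where the median size was 3.13. It also had the smallest SD over the 6 libraries of the 137, 0.0496 against a median of 0.239. Low counts widen this SD. Among the 43 precursors with at least 600 counts in both arms, a limit set after seeing that miR-212-3p reached down to 608, the median SD was 0.179 and miR-132 was again the steadiest. miR-212, with an SD of 0.19 and a mean of -2.84, ranked 52nd of the 137 and 24th of the 43. The groups did not overlap in the arm ratio of 18 of the 137 precursors (13.1%), and miR-132 and miR-212 were not among them.

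**Figure D3:**
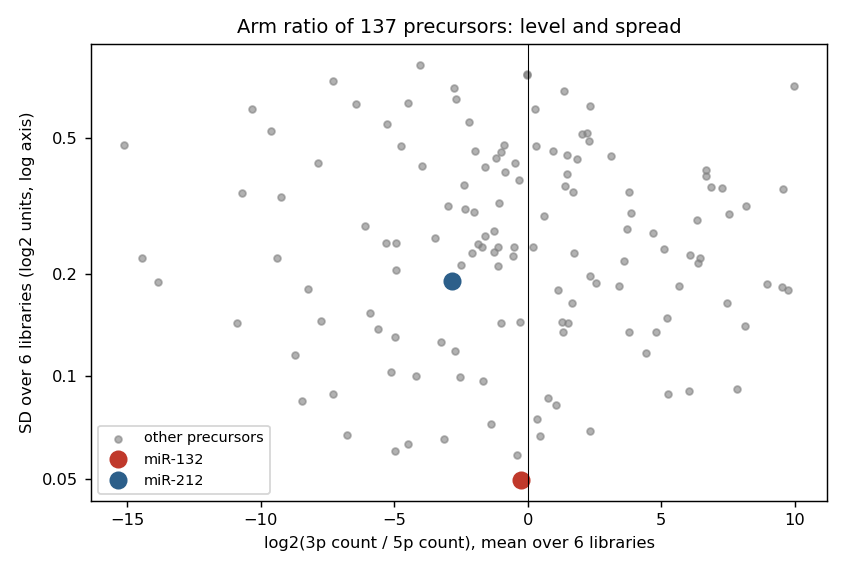
Mean of log2(3p/5p) over the 6 libraries (horizontal) and its SD over them (vertical, log axis) for 137 precursors. miR-132 (red) lies near 0 on the horizontal axis and lowest of all on the vertical axis, and miR-212 (blue) lies at -2.84 and near the middle of the spread.

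The levels of 3 arms were also steadier than those of most tested miRNAs. These were not matched to the arms in counts, and low counts widen this measure too. The coefficient of variation over the 6 libraries was 9.27% for miR-132-3p, 8.43% for miR-132-5p and 8.21% for miR-212-3p, and 17.5% for miR-212-5p, where the median of the 459 tested miRNAs was 15.6%. Over the same 6 libraries, all 4 arms were lower where miRNAs poor in G and C were higher. Pearson's r with the index of G and C content was -0.88 for miR-132-3p, -0.91 for miR-132-5p, -0.73 for miR-212-3p and -0.76 for miR-212-5p, values that describe 6 libraries sharing their depth and preparation with the index. Of these arms 3, all but miR-132-5p, belong to the 203 miRNAs with at least 50% G and C that the index subtracts. With the index rebuilt without the 4 arms, r was -0.876, -0.913, -0.724 and -0.759 in the same order, so their own place in it changed r little. The median r was -0.62 over the 203, of which 87 had an r as low as that of miR-212-3p or lower. It was -0.32 over the 184 with 45% to 55%, which hold all 4 arms, and 55 of these had such an r. An r as low as that of miR-212-3p, the weakest of the 4, is thus not particular to the arms. The lower values of the miR-132 arms were not counted in this way. With the index as a covariate in edgeR, an alternative chosen after seeing the data, the log2 fold changes were -0.05 for both miR-132 arms, -0.08 for miR-212-3p and -0.19 for miR-212-5p, with adjusted p from 0.12 to 0.761. Because the index was not balanced between the groups, this fit cannot fully separate index from group. The 184 tested miRNAs with 45% to 55% G and C, the range of the 4 arms, had a median log2 fold change of -0.02.

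**Figure D4:**
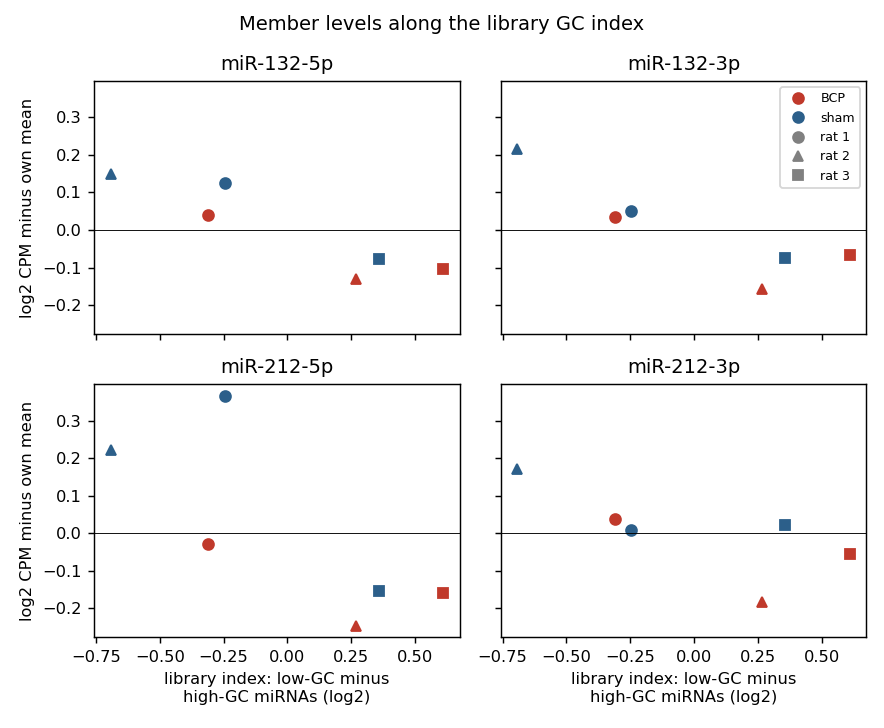
Log2 CPM of each arm, as the difference from its mean over the 6 libraries, against the library index (median of miRNAs with under 35% G and C minus that of miRNAs with at least 50%, log2 units), with BCP rats in red and sham-operated rats in blue. The 3 libraries with an index above 0, from BCP rats 2 and 3 and sham-operated rat 3, hold the lowest values of miR-132-5p, miR-132-3p and miR-212-5p.

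The miRNAs whose log2 CPM followed the 3p arms most closely over the 6 libraries were named as a description. For miR-132-3p these were miR-674-3p, miR-3099 and miR-337-5p, with Pearson's r of 0.998, 0.996 and 0.989. For miR-212-3p they were miR-378b, which had only 0.725 CPM on average, miR-3547 and miR-490-5p, with r of 0.979, 0.975 and 0.966. The partner arm miR-132-5p came 33rd of 458 for miR-132-3p, with r of 0.925, and miR-212-3p came 38th, with r of 0.915. miR-212-5p had an r of 0.943 with miR-132-5p and 0.644 with miR-212-3p, the other arm of its own hairpin.

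Other miRNAs linked to neuronal activity or to synapses were given from a list of 20, all of them tested, such as the dendritic miR-134, which limits spine size through Limk1, and the MEF2-driven miR-329, miR-379 and miR-381 of the same imprinted cluster. In edgeR's test 0 of 20 were higher and 0 were lower at an adjusted p below 0.05, the smallest being 0.336, a count that at a share of 3.92% over all tested miRNAs does not set the list apart. Their median log2 fold change was -0.05, against -0.0034 for all tested miRNAs, and 12 of 20 had a BCP mean below that of the sham-operated group. The 3 with the most counts were miR-9a-5p, a regulator of neural progenitors, miR-29a-3p, a repressor of collagens, and miR-181a-5p, which targets AMPA receptor messages. miR-9a-5p was at 70762 ± 5643 CPM in the BCP group and 62555 ± 4418 in the sham-operated group (SD, n = 3 rats each), or 0.18 on the log2 scale with a standard error of 0.0959 (edgeR, adjusted p = 0.506). miR-181a-5p was at 19370 ± 1432 and 21480 ± 2674 CPM, or -0.15 on the log2 scale with a standard error of 0.114 (edgeR, adjusted p = 0.647). miR-29a-3p was at 8711 ± 353 and 7407 ± 678 CPM, or 0.23 on the log2 scale with a standard error of 0.0966 (edgeR, adjusted p = 0.336).

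**Figure D5:**
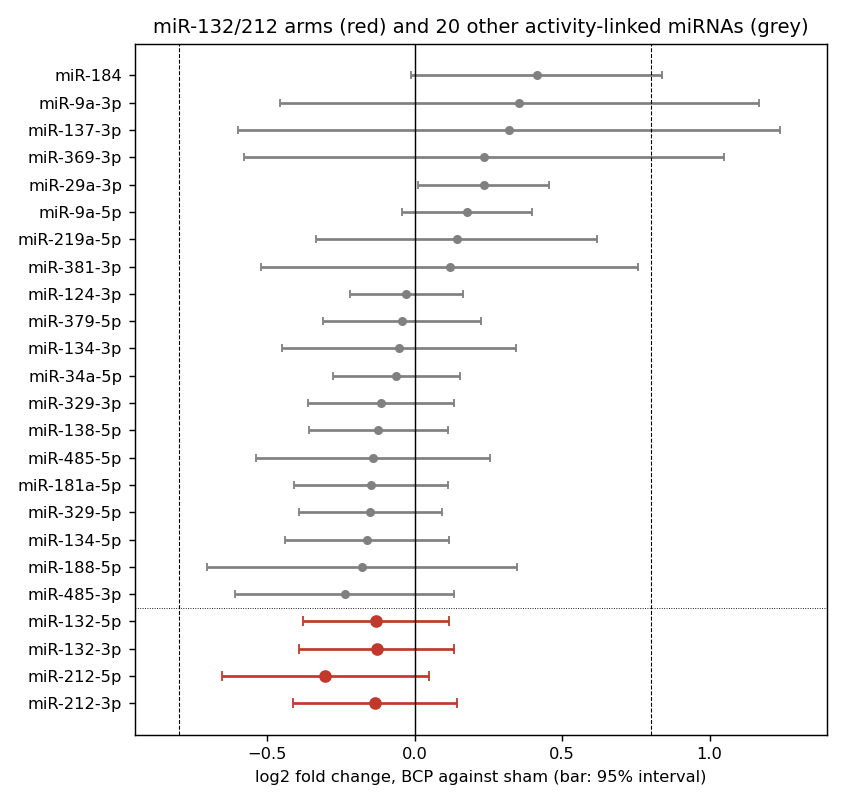
Log2 fold change, BCP against sham, with its 95% interval from edgeR's quasi-likelihood test for the 4 arms (red) and 20 other activity-linked miRNAs (grey); dashed lines mark 0.8 in either direction. The 4 arms lie between -0.30 and -0.13, with intervals that reach across 0 and stay inside the dashed lines.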

How the data were processed

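Small RNA of the lumbar cord was measured in 3 BCP and 3 sham-operated rats. The authors trimmed and filtered reads with the FASTX Toolkit, mapped clean reads of 18 to 40 nucleotides to Rnor_6.0 with Bowtie2 2.2.3 (the submitters' processing notes) and identified known miRNAs by length and miRBase. The deposited values are raw read counts per mature miRNA, without normalization, and how reads matching several miRNAs were assigned is not given in the sources used here. The tests were run in edgeR 4.0.16 under R 4.3.3 (filterByExpr with a minimum count of 10, TMM, quasi-likelihood test, Benjamini-Hochberg adjustment over 459 miRNAs, common biological coefficient of variation 16.9%). DESeq2 1.42.0 and limma 3.58.1 served as alternatives. Standard errors and 95% intervals came from the log2 fold change and F. Ratios used log2 counts with a pseudocount of 0.5 and exact permutation tests over libraries, likeness and the G and C index used log2(CPM + 1), and the edgeR quasi-likelihood fit was tested on simulated counts.

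Counting limits cover counting error only, since reads carried no molecular identifiers. Pairs of libraries within a group had a chi-square over its degrees of freedom between 62.9 and 673, and each was counted as 1 sample. The p-values measure the spread between these rats. The 4 arms, the lists and the tests were chosen with earlier results of these data known. Named were the 4 arms, their neighbours in level, the 3 miRNAs most alike to each 3p arm, miR-124-3p as a neuronal reference, and of the activity list those past the test and the 3 with most counts; members of the marker lists and the examples of the activity list were named after their values were seen. miR-9 is listed as miR-9a in the table, and miR-486 was not matched. Sequences came from RefSeq (GRCr8).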

Additional observations from a re-analysis of the deposited data

How the results depend on the processing

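All 4 arms stayed lower in the BCP group and above an adjusted p of 0.05 in the 10 alternatives to filter, normalization, test and design, with log2 fold changes from -0.15 to -0.045 for miR-132-3p, -0.15 to -0.054 for miR-132-5p, -0.16 to -0.081 for miR-212-3p and -0.32 to -0.19 for miR-212-5p; the values nearest 0 came with the index of G and C content as a covariate, which was chosen after seeing the data, as was TMM over miRNAs with 45% to 55% G and C. Leaving out each rat gave log2 fold changes from -0.23 to -0.055 for miR-132-3p, -0.23 to -0.095 for miR-132-5p, -0.21 to -0.076 for miR-212-3p and -0.47 to -0.22 for miR-212-5p. Without sham-operated rat 3 miR-212-5p reached -0.47 with an adjusted p of 0.0535 (edgeR), and without sham-operated rat 2 miR-132-3p was at -0.055. Among the ratios, the difference of log2(3p/5p) of miR-132 ranged from -0.033 to 0.038 and that of miR-132-3p to miR-212-3p from -0.037 to 0.033, each changing sign around 0. The range was 0.013 to 0.28 for miR-212-3p to miR-212-5p, 0.079 to 0.24 for miR-132-5p to miR-212-5p, -0.16 to -0.032 for miR-132-3p to miR-124-3p and -0.15 to -0.065 for miR-212-3p to miR-124-3p. A pseudocount of 0, shares in percent and the replicate block changed the direction of 0 of the 6 ratios. The count of 16 called miRNAs became 25 with edgeR's likelihood ratio test and 8 to 20 without a rat, with 0 of the 4 arms in each. Lower calls appeared under other fits, 5 of 24 with the covariate, 3 of 25 with the likelihood ratio test, 2 of 18 with total counts and 1 each with RLE size factors, the stricter filter, the other TMM set and without sham-operated rat 3. Same-numbered rats are different animals. The correlations of their deviations were 0.109, -0.452 and 0.711 for numbers 1, 2 and 3. With 3 rats in a group these cannot decide whether same-numbered libraries were handled together. With the replicate block 18 miRNAs were called, and the arms were at -0.13, -0.13, -0.14 and -0.29 in the order miR-132-3p, miR-132-5p, miR-212-3p and miR-212-5p. Depth limited miR-212-3p most, with 608 counts in its smallest library.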
